A study of Mus musculus with 9 samples.

Results

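Hmgcs1, Idi1, Fdft1, Sqle, Lss, Insig1 and Srebf2 are 7 genes of the cholesterol synthesis pathway, and their RNA levels were followed in the trigeminal ganglion (TG) of mice with an inflamed temporomandibular joint (TMJ). They were chosen by name, and each level is the sum of the FPKM values (mapped fragments scaled to transcript length and library size) of all transcripts that GENCODE gives to the gene. All 7 were found among the 21809 gene names of the mRNA table, and all 7 passed the filter of a mean of at least 0.1 FPKM. None of them is a receptor for lipoproteins. The uptake genes are described beside them from lists of the wider pathway.

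The animals were 8-week-old male wild-type C57BL/6 mice that received 10 µl of either saline or complete Freund's adjuvant (CFA, 5 mg/ml) in the TMJ. CFA, a suspension of killed mycobacteria in oil, provokes a lasting local inflammation. There were 3 groups with 3 libraries each, namely saline (replicates 1 to 3), CFA on day 3 (CFA3D, replicates 1 to 3) and CFA on day 6 (CFA6D, replicates 4 to 6). Each library came from pooled punches of 1 side of the TG of 3 mice. The saline libraries carry a day 3 label, so in the comparison of CFA6D with saline, day and treatment cannot be told apart. The TG is a mixture of neurons, satellite glia, Schwann cells and other cells, so fewer cells of a type and less RNA per cell cannot be told apart in these values.

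Cells make cholesterol from acetyl-CoA through mevalonate, the isoprenoid units, squalene and lanosterol. The rate is set by SREBP2, a transcription factor that waits in the membrane of the endoplasmic reticulum while sterols are plentiful, held there by INSIG proteins, and that is released to the nucleus when sterols run short. In peripheral nerve the pathway is known for its place in myelin, since Schwann cells make most of the cholesterol of their myelin themselves, while neurons need sterols for axonal and synaptic membranes.

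The upstream sequences of these genes are shown first, because the pathway is known for a shared response to SREBP2 at its promoters. RefSeq promoter sequences (GRCm38.p6) were found for 5 of the 7 genes (Srebf2, Hmgcs1, Insig1, Idi1 and Lss, not Sqle and Fdft1). In the 250 bases before each RefSeq start, 4 motifs were searched on both strands. These were TCACNCCA (the core of a sterol regulatory element), CCAAT (the NF-Y box), CACGTG (an E-box) and GGGCGG (a GC box), and the last bases of the first can overlap the second. The 3 windows below belong to the regulator Srebf2, to Hmgcs1, the most abundant of the 7, and to Insig1, the feedback inhibitor. Each ends before the first annotated transcript start. Capitals mark matches to the sterol element core, to CCAAT (read as ATTGG on the opposite strand) and to the E-box, and GC boxes are left in lower case.
Srebf2, chr15:82147019-82147180, plus strand: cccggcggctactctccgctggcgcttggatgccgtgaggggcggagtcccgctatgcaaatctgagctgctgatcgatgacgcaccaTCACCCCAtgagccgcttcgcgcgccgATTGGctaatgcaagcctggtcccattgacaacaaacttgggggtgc
Hmgcs1, chr13:119690101-119690350, plus strand: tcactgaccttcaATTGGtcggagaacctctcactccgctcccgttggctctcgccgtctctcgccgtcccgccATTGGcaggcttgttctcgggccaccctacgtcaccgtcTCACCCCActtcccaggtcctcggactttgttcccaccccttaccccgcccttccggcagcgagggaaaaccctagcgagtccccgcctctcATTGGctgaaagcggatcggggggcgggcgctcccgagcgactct
Insig1, chr5:28071162-28071362, plus strand: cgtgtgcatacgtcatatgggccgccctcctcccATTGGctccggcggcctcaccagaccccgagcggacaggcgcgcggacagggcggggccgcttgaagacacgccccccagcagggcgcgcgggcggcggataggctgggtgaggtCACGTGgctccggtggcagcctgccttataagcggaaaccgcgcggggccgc

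Srebf2 and Hmgcs1 each held 1 match to the sterol element core, and Insig1, Idi1 and Lss held 0 in this window. Of all 32851 RefSeq promoters of the same length, 3.67% held it. All 5 genes held at least 1 CCAAT box, with 3 in Hmgcs1, 2 in Idi1 and 1 in each of the others, against 33.8% of all promoters. All 5 held a GC box, with 4 in Srebf2 and 3 in Insig1, against 32.7% of all promoters. The counts cover all 250 bases, also those past a gene's first annotated transcript start. Past that start lie both CCAAT boxes of Idi1 (45 and 14 bases before the RefSeq start) and its GC box (69 bases). The GC boxes of Srebf2 at 79, 52 and 34 bases lie past it too. The E-box was found in Insig1 alone of the 5, and in 6.02% of all promoters. These matches describe the letters of the windows and not binding, which was not measured.

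**Figure D1:**
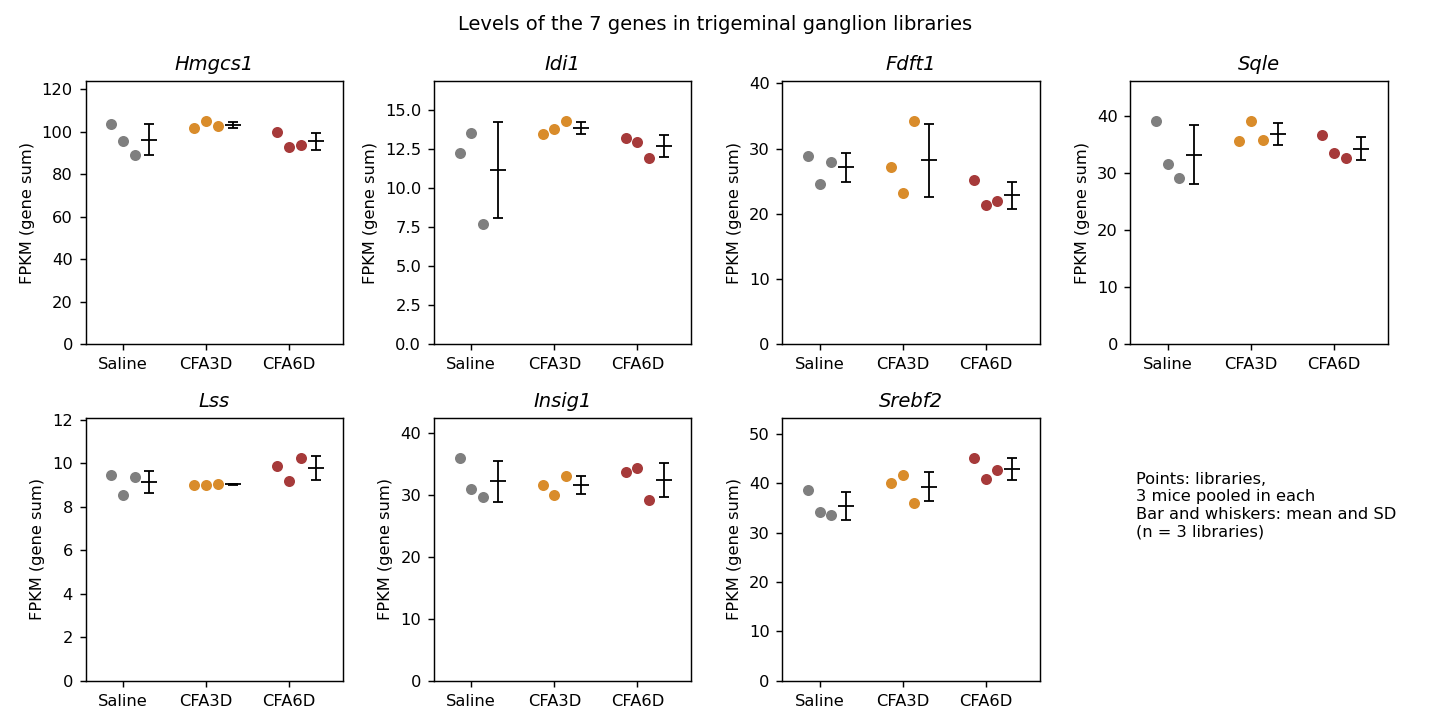
Gene sums in FPKM (vertical axes, starting at 0) of the 7 genes in the 9 TG libraries, with points for libraries and the mean and SD of the 3 libraries of a group to their right. Srebf2 is the 1 gene whose 3 CFA6D libraries (40.8 to 45.1 FPKM) all lie above its 3 saline libraries (33.5 to 38.5 FPKM), and the low saline point of Idi1 (7.67 FPKM) is saline replicate 3.

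In saline TG, Hmgcs1 was the most abundant of the 7, at 96.1 ± 7.33 FPKM (SD, n = 3 libraries), a level above 98.6% of all gene sums. Srebf2 (35.4 ± 2.75 FPKM), Sqle (33.2 ± 5.20 FPKM) and Insig1 (32.2 ± 3.35 FPKM) followed, and the ranges of neighbours in this order overlapped. Fdft1 came next at 27.1 ± 2.24 FPKM and did not overlap Insig1. Idi1 (11.2 ± 3.08 FPKM) and Lss (9.14 ± 0.503 FPKM) were lowest, and their saline ranges overlapped. FPKM is a value per length, so these levels can be set side by side between genes as sums over all transcript classes. Protein-coding transcripts held a mean of 19.7% of the Lss sum in saline, 81.6% of Srebf2 and 95.6% of Sqle. The order need not be that of the coding RNA alone. The gene sums rest on about 780 read pairs (Idi1 in its lowest library) to 14000 read pairs (Hmgcs1 in its highest) per library.

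The genes differed in how much they varied. Over all 9 libraries the coefficient of variation was 5.44% for Lss, 5.74% for Hmgcs1, 7.29% for Insig1, 9.69% for Sqle, 10.1% for Srebf2, 15.4% for Fdft1 and 15.7% for Idi1. Among the 8629 gene sums with means of 5 to 200 FPKM the median was 10.7%, with quartiles of 8.21% and 14.4%. Lss, Hmgcs1 and Insig1 thus varied less than the lower quartile, and Fdft1 and Idi1 more than the upper quartile.

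Some libraries stood apart in ways that touch these values. Markers of the pituitary gland, led by growth hormone (Gh), summed to 10622 FPKM in saline replicate 3 and 1114 FPKM in CFA6D replicate 4. CFA6D replicate 5 followed at 403 FPKM, with the highest level of the pituitary marker Pomc (343 FPKM). The remaining libraries held 8.71 to 99.2 FPKM. Skeletal muscle markers summed to 136 FPKM in saline replicate 2 and 60.3 FPKM in CFA6D replicate 6, against 1.11 to 30.4 FPKM elsewhere, and adipocyte markers reached 112 FPKM in saline replicate 2. None of the 5 pituitary or 5 muscle markers was at 0 in all libraries. The markers of the labelled tissue were present throughout, with sensory neuron markers (led by Tubb3) at 1650 to 2438 FPKM and Schwann cell myelin markers at 2731 to 3599 FPKM. Depth, estimated from the steps between low FPKM values, ran from 30 M to 42.2 M read pairs per library.

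Srebf2 encodes SREBP2 itself. It measured 38.5, 34.1 and 33.5 FPKM in the 3 saline libraries, 40.1, 41.7 and 36.1 FPKM on CFA3D, and 45.1, 40.8 and 42.6 FPKM on CFA6D. All CFA6D libraries lay above all saline libraries, and 2 of the 3 CFA3D libraries did. On CFA6D Srebf2 was upregulated 1.21-fold against saline (log2 change 0.28, 95% interval 0.08 to 0.47, limma with Benjamini-Hochberg adjusted p = 0.269 over 16096 gene sums). This call, like all others named here, was made at an unadjusted p under 0.05, the study's own threshold. No gene sum of the table had an adjusted p under 0.05 in any of the comparisons, while 717 passed the unadjusted threshold on CFA3D and 1781 on CFA6D. On CFA3D the log2 change of Srebf2 was 0.15 (95% interval -0.04 to 0.34, adjusted p = 0.997), and from CFA3D to CFA6D it was 0.13 (-0.07 to 0.32, adjusted p = 0.738).

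The Srebf2 call on CFA6D did not hold without the libraries that stood apart. Without saline replicate 3 and CFA6D replicate 4, the libraries richest in pituitary markers (here pituitary-rich), the log2 change was 0.20. CFA6D replicate 5, with 403 FPKM of these markers, stayed in. Without saline replicate 2 and CFA6D replicate 6, the muscle-rich libraries, the log2 change was 0.26. With any single library left out, it ran from 0.24 to 0.34 and kept its call. The same 3 CFA6D libraries were high in genes known to respond to glucocorticoids, whose sum was 314 to 396 FPKM there against 120 to 231 FPKM in saline, with 6 of 8 called higher, beside 8.22% of all gene sums. Sensory neuron markers summed to 2032 to 2438 FPKM on CFA6D and 1650 to 2084 FPKM in saline, with 3 of 8 called higher, beside the same 8.22%. Both lists were chosen with earlier results of these data known, so neither count is independent support. The part of either set of genes in the Srebf2 value was not tested.

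Insig1, whose product retains the SREBP complex in the endoplasmic reticulum and which is itself a known SREBP2 target, did not follow Srebf2. It measured 36.0, 31.0 and 29.7 FPKM in saline, 31.6, 30.1 and 33.0 FPKM on CFA3D, and 33.7, 34.4 and 29.2 FPKM on CFA6D. The 3 groups overlapped throughout. Its log2 change was -0.03 on CFA3D (95% interval -0.24 to 0.19) and 0.01 on CFA6D (-0.21 to 0.23), so the interval on CFA6D reaches at most a 1.17-fold increase.

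Of the wider SREBP control list (8 genes, among them Scap, the escort of SREBPs), 0 passed the test in any comparison. Of all gene sums, 4.45% did on CFA3D, 11.1% on CFA6D, 7.39% from CFA3D to CFA6D and 8.19% over both days. In a list this short, 0 calls are not far from these shares. Scap measured 20.0 ± 1.07 FPKM in saline, 21.3 ± 1.09 FPKM on CFA3D and 22.3 ± 1.01 FPKM on CFA6D, and Srebf1, the paralogue of Srebf2, measured 20.7 ± 2.35, 23.1 ± 3.22 and 22.1 ± 1.43 FPKM (SD, n = 3 each). The paralogue Insig2 had a mean of 8.21 FPKM over the 9 libraries.

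Hmgcs1, the cytosolic HMG-CoA synthase at the entry of the mevalonate pathway, was nearly level. It measured 104, 95.4 and 89.2 FPKM in saline, 102, 105 and 103 FPKM on CFA3D, and 99.9, 92.7 and 93.6 FPKM on CFA6D. The CFA3D libraries lay close together and above all 3 CFA6D libraries, but each group overlapped saline. Its log2 change was 0.10 on CFA3D (95% interval -0.07 to 0.28, adjusted p = 0.997) and -0.01 on CFA6D (-0.18 to 0.17, adjusted p = 0.974).

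Idi1, the isomerase that balances the isoprenoid units for chain building, had the highest coefficient of variation of the 7 genes, and 1 library set its low end. It measured 12.3, 13.5 and 7.67 FPKM in saline, 13.5, 13.8 and 14.3 FPKM on CFA3D, and 13.2, 12.9 and 11.9 FPKM on CFA6D. The lowest value was that of saline replicate 3, the library richest in pituitary markers. On CFA3D the log2 change was 0.35 (95% interval -0.05 to 0.75, adjusted p = 0.997), and without saline replicate 3 it was 0.10. On CFA6D the log2 change was 0.22 (-0.18 to 0.63, adjusted p = 0.695), and it was -0.02 without saline replicate 3. The paralogue Idi2 averaged 0.0885 FPKM.

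Fdft1, the squalene synthase at the branch point between sterols and other isoprenoids, measured 28.9, 24.6 and 27.9 FPKM in saline, 27.2, 23.1 and 34.2 FPKM on CFA3D, and 25.1, 21.4 and 21.9 FPKM on CFA6D. Its CFA6D mean (22.8 ± 2.03 FPKM) was below its saline mean (27.1 ± 2.24 FPKM), with CFA6D replicate 4 above saline replicate 2, and the CFA3D libraries spanned both groups. The log2 change was -0.25 on CFA6D (95% interval -0.56 to 0.06, adjusted p = 0.553), 0.04 on CFA3D (-0.27 to 0.35, adjusted p = 0.997), and -0.29 from CFA3D to CFA6D (-0.60 to 0.02, adjusted p = 0.677). None of these passed the threshold.

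Sqle, the squalene epoxidase and a known rate-limiting step of the late pathway, measured 39.0, 31.5 and 29.0 FPKM in saline, 35.6, 39.0 and 35.7 FPKM on CFA3D, and 36.6, 33.5 and 32.6 FPKM on CFA6D. The saline libraries spanned the whole range of the gene. Its log2 change was 0.16 on CFA3D (95% interval -0.09 to 0.40, adjusted p = 0.997) and 0.05 on CFA6D (-0.19 to 0.30, adjusted p = 0.884).

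Lss, the lanosterol synthase that closes the sterol rings, measured 9.48, 8.56 and 9.38 FPKM in saline, 9.01, 9.0 and 9.05 FPKM on CFA3D, and 9.87, 9.16 and 10.2 FPKM on CFA6D. Its CFA6D libraries all lay above its CFA3D libraries, and both groups overlapped saline. The log2 change was -0.02 on CFA3D (95% interval -0.20 to 0.17, adjusted p = 0.997) and 0.09 on CFA6D (-0.09 to 0.28, adjusted p = 0.715).

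As counts, 0 of the 7 genes were called on CFA3D, where 4.45% of all gene sums were, and 1 of 7 (Srebf2, higher) was called on CFA6D, where 11.1% of all gene sums were called and 8.22% were called higher. Over both CFA days against saline 1 of 7 was called (Srebf2, log2 change 0.21, adjusted p = 0.482), against 8.19% of all gene sums with 6.78% higher, and this call was lost without saline replicate 2 or saline replicate 3. From CFA3D to CFA6D 0 of 7 were called, against 7.39% of all. The comparisons with saline share their control libraries. Non-overlapping groups were few against saline, and more were found from CFA3D to CFA6D. On CFA3D 0 genes lay wholly above or below saline (all gene sums 7.01% above and 2.11% below). On CFA6D 1 gene lay above saline (10.7%) and 0 below (5.5%). From CFA3D to CFA6D 1 gene was higher (Lss, 6.62%) and 2 were lower (Hmgcs1 and Idi1, 10.1%). The median log2 change of the 7 was 0.10 on CFA3D and 0.05 on CFA6D, beside 0.05 and 0.03 for all gene sums.

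**Figure D2:**
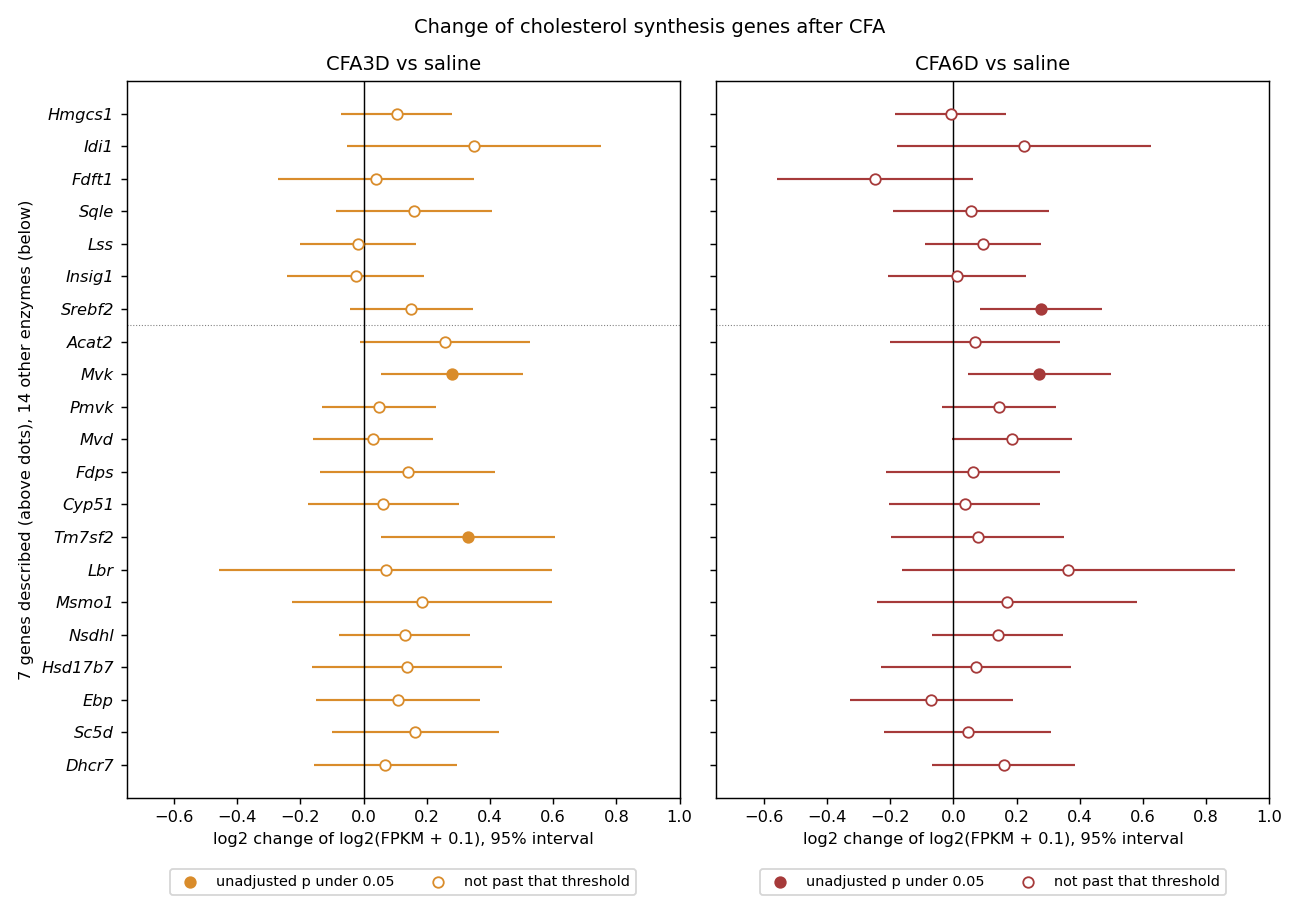
Log2 change against saline (horizontal axes, on log2(FPKM + 0.1), with 95% intervals from limma) of the 7 genes and 14 other enzymes of the pathway on CFA3D (left) and CFA6D (right), filled where the unadjusted p was under 0.05. The filled points are Mvk and Tm7sf2 on CFA3D and Srebf2 and Mvk on CFA6D, and no interval of the 7 genes reaches a log2 change of 1.

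The other enzymes of the route, from acetyl-CoA to cholesterol, were read from a list of 16 genes. On CFA3D 3 of the 16 were called higher (3.65% of all gene sums) and 0 lower, on CFA6D 2 were called higher (8.22% of all) and 0 lower, and from CFA3D to CFA6D 0 were called (7.39% of all). Mvk, the mevalonate kinase, measured 10.9, 10.2 and 8.71 FPKM in saline, 11.3, 12.5 and 12.3 FPKM on CFA3D and 12.5, 11.2 and 12.1 FPKM on CFA6D. It was called on both days (log2 changes 0.28, adjusted p = 0.997, and 0.27, adjusted p = 0.351). Without saline replicate 3, where it was lowest, its log2 change was 0.19 on CFA3D and 0.18 on CFA6D, and neither was called.

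Tm7sf2, a sterol reductase of the late route, measured 10.7, 11.6 and 8.94 FPKM in saline, 12.8, 11.7 and 14.9 FPKM on CFA3D, and 11.7, 10.6 and 10.6 FPKM on CFA6D. It was called on CFA3D alone (log2 change 0.33, adjusted p = 0.997), and that call was lost without saline replicate 3 (log2 change 0.23) or CFA3D replicate 3 (0.24). Its direct difference between the CFA days, a log2 change of -0.25, did not pass the test (adjusted p = 0.679).

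Fdps, the farnesyl diphosphate synthase that feeds Fdft1, measured 70.5, 58.5 and 48.8 FPKM in saline, 59.4, 68.2 and 66.3 FPKM on CFA3D, and 61.5, 62.3 and 59.8 FPKM on CFA6D. The saline libraries spanned its whole range, and its log2 change was 0.14 on CFA3D (95% interval -0.14 to 0.42) and 0.06 on CFA6D (-0.21 to 0.34). The 13 enzymes that were not called on CFA3D all had changes above 0, from 0.03 to 0.26. Of the 14 not called on CFA6D 13 were above 0, from -0.07 to 0.36. Of all 16096 gene sums, 10398 had changes above 0 on CFA3D and 8762 on CFA6D. On CFA3D the median over the 16 was 0.13, beside 0.05 for all gene sums, and on CFA6D it was 0.11 beside 0.03.

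**Figure D3:**
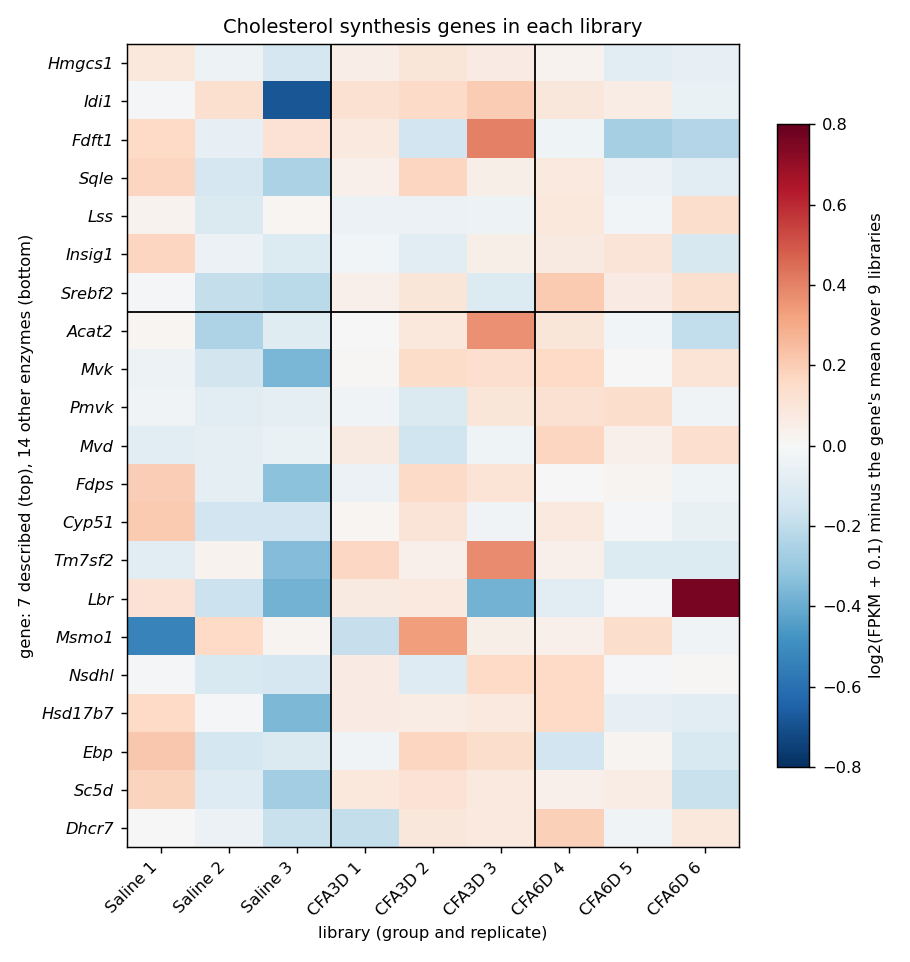
Log2(FPKM + 0.1) of 21 synthesis and control genes (rows, the 7 genes on top) in the 9 libraries (columns), each minus the gene's mean over all libraries, from -0.68 (Idi1 in saline replicate 3) to 0.76 (Lbr in CFA6D replicate 6). In saline replicates 2 and 3, 18 of the 21 genes are below their own mean, and in saline replicate 1, 9 are.

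The saline libraries differed among themselves over the 21 genes shown. Of the 21 genes, 18 were below their own mean in saline replicate 3 and 18 in saline replicate 2, the libraries with the most pituitary and the most muscle RNA, but 9 in saline replicate 1. On CFA3D 5 to 8 of the 21 were below their mean, and on CFA6D 3, 12 and 14 in replicates 4, 5 and 6. Sensory neuron markers had their lowest sums in the same libraries, at 1650 FPKM in saline replicate 3 and 1868 FPKM in saline replicate 2, against 2084 FPKM in saline replicate 1. The markers did not all follow their sum. Of the saline libraries, replicate 3 was lowest for Tubb3, Uchl1, Prph, Nefh, Scn9a and Isl1. It was highest for Snap25 (204, 217 and 227 FPKM in replicates 1, 2 and 3) and Rbfox3 (29.6, 30.7 and 38.9 FPKM). The same counts over all gene sums are not given here, so these are not shown to be particular to the pathway. The part of tissue make-up in these changes was not tested. Without the pituitary-rich libraries the median log2 change of the 7 genes on CFA6D was -0.07, and 1 of the 16 other enzymes was called on each CFA day, neither Mvk nor Tm7sf2.

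Within the 7 genes, Hmgcs1 and Sqle moved most alike over the libraries (Pearson r = 0.93, Spearman rho = 0.87, n = 9). Hmgcs1 and Idi1 followed (r = 0.69, rho = 0.63), and Idi1 and Sqle had r = 0.67 but rho = 0.37. Fdft1 and Srebf2 had the lowest r (r = -0.50, rho = -0.55), and Idi1 and Lss the lowest rho (rho = -0.72, r = -0.27). These values are descriptions over libraries that share depth and tissue make-up. The gene sums outside the pathway lists whose pattern was most like the mean of the 7 were Ndfip2, an adaptor of ubiquitin ligases (r = 0.98), Vdac1, a channel of the outer mitochondrial membrane (r = 0.97), and Stx12, Reep5 and Rtn3, genes of endosomal and reticular membranes (r = 0.97 each, n = 9). Of 13046 gene sums compared, 122 had r of at least 0.9.

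Lipoprotein uptake and cholesterol transport were read from 12 genes. On CFA3D 0 were called, where 4.45% of all gene sums were. On CFA6D 1 was called higher, where 8.22% of all were, and 0 were called lower. On CFA6D 3 of the 12 lay wholly below saline and 0 wholly above, beside 5.5% and 10.7% of all gene sums. Lrp1, a large receptor for several lipoproteins, measured 60.5, 48.6 and 48.0 FPKM in saline, 57.2, 63.4 and 39.5 FPKM on CFA3D, and 52.3, 68.8 and 53.5 FPKM on CFA6D. Its groups overlapped, with a log2 change of 0.01 on CFA3D (95% interval -0.41 to 0.42) and 0.15 on CFA6D (-0.26 to 0.56). Scarb1, a receptor for high-density lipoprotein, had a log2 change of 0.10 on CFA3D (-0.21 to 0.41) and 0.19 on CFA6D (-0.12 to 0.51), and was not called.

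The remaining neighbouring routes held few calls. Among 10 genes of cholesterol efflux and storage, Osbp, an oxysterol and cholesterol exchanger, was called higher on CFA6D at 12.3, 12.3 and 12.9 FPKM against 10.6, 9.51 and 10.8 FPKM in saline (log2 change 0.28, adjusted p = 0.231), while Apoe, the main lipid carrier of glia, measured 282 to 436 FPKM over all libraries without a call. Of 10 fatty acid genes known as SREBP1 targets, 0 were called against saline on either day. Of 7 genes of other isoprenoid products, Ggps1 (log2 change 0.26, adjusted p = 0.997) and Nus1 (0.27, adjusted p = 0.997) were called higher on CFA3D, and Dhdds (0.39, adjusted p = 0.415) on CFA6D. These 3 genes serve geranylgeranyl and dolichol synthesis. The Ggps1 call was lost in 8 of 24 alternative settings, among them without saline replicate 3 (log2 change 0.19), and the Nus1 call in 10 of 24, among them without saline replicate 2 or 3 or CFA3D replicate 2 or 3 (0.19 to 0.27). The Dhdds call was lost in 13 of 23, among them without saline replicate 1 (0.37), saline replicate 3 (0.25) or CFA6D replicate 5 (0.29). The Osbp call held with any single library left out and was lost without the muscle-rich libraries (0.20). In all, 2 of the 47 genes in these lists were called on CFA3D and 3 of 47 on CFA6D, beside the shares of 4.45% and 11.1% over all gene sums.

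**Figure D4:**
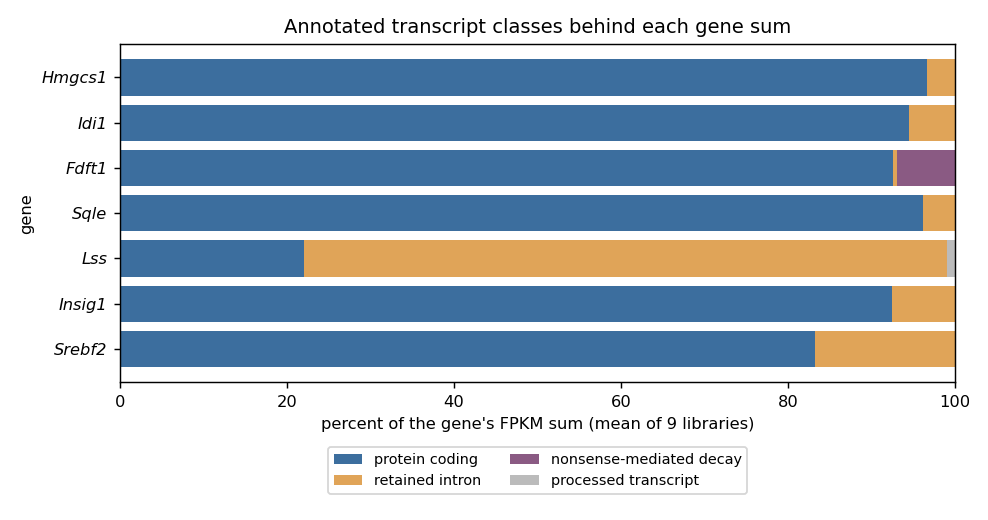
Share of each gene's FPKM sum (horizontal axis, percent, mean of the 9 libraries) held by transcripts that GENCODE classes as protein coding, retained intron, nonsense-mediated decay or processed transcript. Lss is the 1 gene of the 7 whose sum is mostly retained-intron transcripts (77.1%), while in the others protein-coding transcripts hold 83.3% to 96.6%.

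The gene sums were built from 34 annotated transcripts, of which 30 passed the filter and 2 were listed at 0 in every library. Protein-coding transcripts held 96.6% of the Hmgcs1 sum, 96.2% of Sqle, 94.5% of Idi1, 92.6% of Fdft1, 92.5% of Insig1 and 83.3% of Srebf2. Lss differed, with 22.0% protein-coding and 77.1% retained-intron transcripts. Its full-length coding transcript, ENSMUST00000048678, was put at 0.19, 0.97 and 1.69 FPKM in saline, 0.77, 2.18 and 0.01 FPKM on CFA3D, and 1.90, 1.35 and 2.12 FPKM on CFA6D. This wide spread stands beside the narrow spread of the Lss sum, whose coefficient of variation was 5.44%.

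In Fdft1 the sum was divided mainly between coding transcripts. Its coding transcripts ENSMUST00000054963 and ENSMUST00000224625, which are annotated with coding sequences of the same 1248 bases, held 49.8% and 42.8% of the sum. In saline the first measured 11.4, 11.8 and 18.0 FPKM and the second 14.5, 11.05 and 7.76 FPKM, so the library highest in 1 was lowest in the other. On CFA6D the first measured 13.0, 9.13 and 15.1 FPKM and the second 10.2, 10.4 and 5.61 FPKM. Neither was called in any comparison.

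Of the 30 member transcripts tested, 2 were called on CFA3D, where 4.68% of 66562 mRNA transcripts were, and 2 on CFA6D, where 6.81% were. The main Srebf2 transcript, ENSMUST00000023100 with 79.6% of the sum, measured 30.7, 25.6 and 26.6 FPKM without CFA and 36.6, 32.8 and 35.6 FPKM on CFA6D. It was higher on CFA6D by a log2 change of 0.34 (adjusted p = 0.581 over all mRNA transcripts), with no overlap between the groups, which 6.7% of mRNA transcripts showed in this direction. A short coding fragment of Srebf2, ENSMUST00000229009, measured 0.88, 0.75 and 0.88 FPKM in saline, 1.32, 1.46 and 1.77 FPKM on CFA3D, and 0.51, 0.57 and 1.00 FPKM on CFA6D. It was higher on CFA3D (log2 change 0.78, adjusted p = 0.989) and lower on CFA6D than on CFA3D (log2 change -1.07, adjusted p = 0.845), the 1 call of that comparison, where 5.42% of mRNA transcripts were called. It held 2.59% of the Srebf2 sum. The other calls fell on retained-intron transcripts, namely ENSMUST00000229518 of Srebf2 (1.57% of its sum, lower on CFA3D by a log2 change of -1.10) and ENSMUST00000161953 of Sqle (1.67% of its sum, lower on CFA6D by a log2 change of -0.65). ENSMUST00000229009 (748 bases), ENSMUST00000229518 (577 bases) and ENSMUST00000161953 (1265 bases) are short and low, so few read pairs stand behind their calls.

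**Figure D5:**
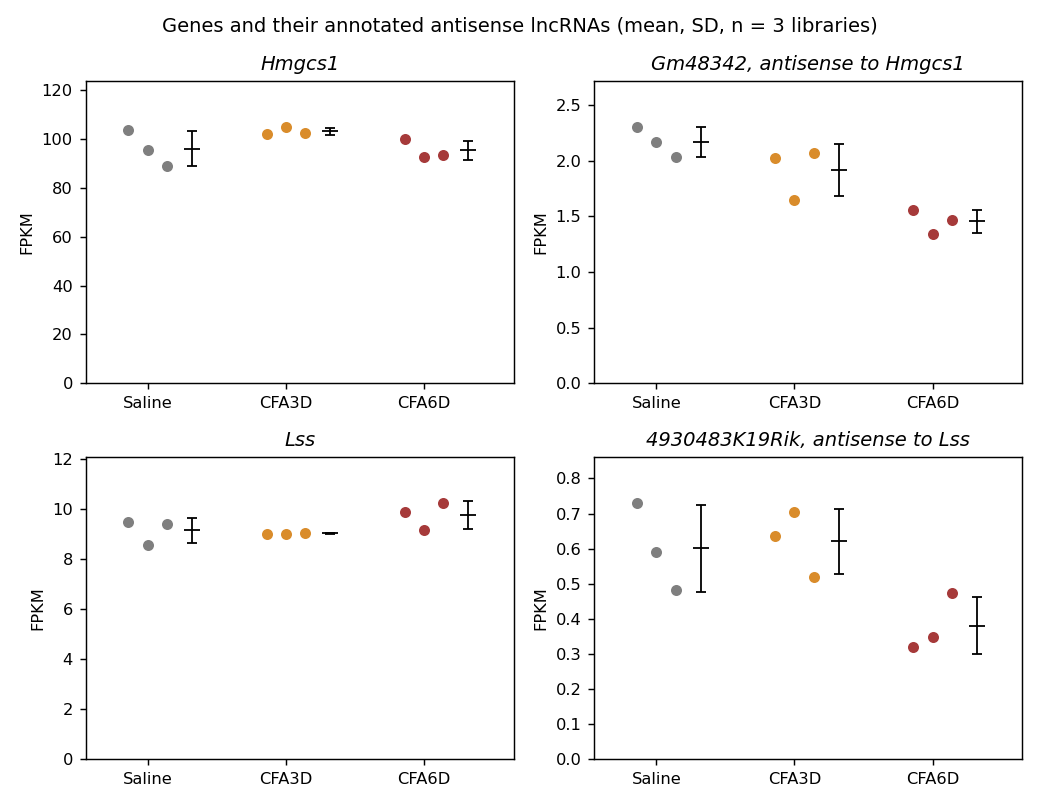
FPKM (vertical axes, starting at 0) of Hmgcs1 and Lss (left) and of the lncRNAs annotated antisense to them (right), with points for libraries and mean and SD at their right. The antisense lncRNAs are lowest on CFA6D, where all 3 libraries of each lie below all 3 saline libraries, while Hmgcs1 and Lss overlap saline.

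Long noncoding RNAs (lncRNAs) lie on the opposite strand of 2 of the 7 genes, and both were lower on CFA6D. Gm48342 (chr13:119698360-119704549, minus strand) lies wholly inside Hmgcs1 (chr13:119690379-119708260, plus strand) over 6190 bases. It measured 2.30, 2.17 and 2.04 FPKM in saline, 2.03, 1.65 and 2.07 FPKM on CFA3D, and 1.55, 1.35 and 1.47 FPKM on CFA6D. On CFA6D it was downregulated against saline by a log2 change of -0.55 (95% interval -0.89 to -0.20, adjusted p = 0.440 over 4122 lncRNA gene sums), where 4.03% of lncRNA gene sums were called lower and 6.74% lay wholly below saline. The call held with any single library left out, with log2 changes from -0.59 to -0.49.

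The lncRNA 4930483K19Rik (chr10:76545871-76562226, minus strand) overlaps Lss (chr10:76531588-76557138, plus strand) over 11268 bases. It measured 0.731, 0.589 and 0.483 FPKM in saline, 0.636, 0.705 and 0.520 FPKM on CFA3D, and 0.32, 0.349 and 0.472 FPKM on CFA6D. The log2 change on CFA6D was -0.54 against saline (adjusted p = 0.629). That call was lost without saline replicate 1 (log2 change -0.41), saline replicate 2 (-0.55), CFA6D replicate 4 (-0.45) or CFA6D replicate 5 (-0.50). Hmgcs1 and Lss themselves were not called in either comparison. The methods describe strand-specific libraries while the sample labels name a different kit, and how strand was used in counting was not given in the sources used here, so reads of a gene and of its antisense partner may not be fully separated.

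The other 7 annotated neighbours held no call against saline. Mir33, the miRNA gene inside Srebf2, whose product is known to repress cholesterol export, was at 0 to 0.590 FPKM in this total RNA, too low to compare. Gm49502, an unclassed transcript inside Srebf2 on the same strand, measured 2.85 to 4.17 FPKM with a log2 change of 0.04 on CFA6D. Ctsb, a lysosomal protease gene that overlaps the end of Fdft1 over 774 bases on the opposite strand, measured 183 to 236 FPKM with a log2 change of 0.01 on CFA6D. The others were Gm48574 at Idi1, Gm26608 at Insig1, Washc5 at Sqle and Shisa8 at Srebf2.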

How the data were processed

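Total RNA of 9 TG libraries was analysed. What the authors deposited are transcript-level FPKM values, with mRNAs, lncRNAs and the remaining noncoding RNAs each in their own table. Per the study's methods, reads were trimmed and mapped to GRCm38 with counts made in CLC Genomics Workbench, while the submitters' processing notes name Bowtie 0.12.2 and mm8. The step that gave FPKM was not given in the sources used here, and 0 per-sample columns were left out. Of 102122 mRNA transcripts, 101539 were matched to GENCODE M21 by identifier and summed per gene name, so a sum adds short and retained-intron transcripts at full weight.

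The fits used limma 3.58.1 (R 4.3.3) on log2(FPKM + 0.1), with 3 groups, empirical Bayes with a trend, no covariate, all 9 libraries in each fit, and a mean of at least 0.1 FPKM. A call was an unadjusted p under 0.05, the study's cutoff, and Benjamini-Hochberg adjusted p-values covered everything tested in a table. Fold changes of low genes are understated on this scale. An exact permutation test of 3 libraries against 3 cannot give a p below 0.1, so none is given. Each library pools 3 mice, and p-values measure the spread between these pools. Read pairs were estimated from the step between low FPKM values, and they cover counting error only.

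The 7 genes, the pathway and marker lists and the tests were chosen with earlier results of these data known. Named were the 7 genes with their transcripts holding at least 10% of the sum, genes of the synthesis list, genes of the other lists with a call or, failing that, the 2 of highest mean, and the 5 gene sums most like the mean of the 7. Transcripts of smaller share, the neighbours at each locus, Apoe, Fdps, Lrp1, Scap and Scarb1 were named after their values were seen. The fit was tested on simulated data. Alternatives were pseudocount, filter, scaling, trend, groups fitted, threshold, single libraries left out, replicate block, and summing coding transcripts only or taking the transcript of highest mean. Leaving out the pituitary-rich or muscle-rich libraries was added after seeing the data. Some genes of the lists count in the totals but are not reported here by name. The circRNA data were not analysed here. Other steps ran in Python 3.11.15, numpy 2.4.6, pandas 2.3.3 and matplotlib 3.10.9.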

Additional observations from a re-analysis of the deposited data

Results flagged for a closer look

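The effects of CFA on the 2 days were compared directly as CFA6D against CFA3D, and 5 genes in or beside the pathway differed at an unadjusted p under 0.05, none with an adjusted p under 0.05. Called were 3 of the 47 genes of neighbouring lists and 0 of the 23 synthesis and control genes, beside 7.39% of all gene sums. The share over all lncRNAs in this comparison is not given here. Acss2, the cytosolic acetyl-CoA synthetase, was lower on CFA6D by a log2 change of -0.22 (adjusted p = 0.634), with all 3 CFA6D libraries (21.3 to 22.3 FPKM) below all CFA3D libraries (24.2 to 26.8 FPKM). Coq2, of ubiquinone synthesis, was lower by -0.21 (adjusted p = 0.666). Npc2, a lysosomal cholesterol carrier, was lower by -0.17 (adjusted p = 0.671). The lncRNA 4930483K19Rik, antisense to Lss, was lower by -0.59 (adjusted p = 0.795), and Gm48342, antisense to Hmgcs1, by -0.37 (adjusted p = 0.833). All of these calls were lost in some alternative settings. Acss2 lost its call in 7 of 23 settings, among them without CFA3D replicate 3 (-0.18) or CFA6D replicate 6 (-0.20), and was -0.10 by its transcript of highest mean. Coq2 lost its call in 13 of 23, among them without saline replicate 2 and without any 1 of the 6 CFA libraries (-0.23 to -0.18). Npc2 lost its call in 17 of 23, among them without saline replicate 2 or 3, CFA3D replicate 2 or 3, or any 1 of the 3 CFA6D libraries (-0.20 to -0.12). Gm48342 lost its call in 12 of 21, among them without saline replicate 2, CFA3D replicate 1 or 3, or CFA6D replicate 5 or 6 (-0.38 to -0.31). The call of 4930483K19Rik was lost in 7 of 20, among them without CFA3D replicate 1 or 2 or CFA6D replicate 4 or 5 (-0.57 to -0.50). No library of these results could be examined for a gap to its group, since each group has 3 libraries.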

How the results depend on the processing

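In the order CFA3D, CFA6D, CFA6D against CFA3D, and both days, the called counts were 0, 1, 0 and 1 of the 7 genes, 3, 2, 0 and 2 of the 16 other enzymes, 2, 3, 3 and 1 of the 47 genes of neighbouring lists, and 2, 2, 1 and 1 of the member transcripts. With an adjusted p under 0.05 every one of them became 0, and with an added log2 change of at least 1 all gene counts became 0 and the transcript counts 1 on CFA3D (ENSMUST00000229518), 0 on CFA6D, 1 from CFA3D to CFA6D and 0 over both days. Quantile normalization gave 2 of the 7 on CFA6D (Fdft1, log2 change -0.33, and Srebf2), 1 and 7 of the neighbouring lists on CFA3D and CFA6D, and 0 transcripts over both days. Fitting only the groups compared gave 2 of the 7 on CFA6D (Fdft1 and Srebf2), 1 other enzyme (Tm7sf2) and 2 transcripts from CFA3D to CFA6D, and 1 of the neighbouring lists on each CFA day. Median-of-ratios scaling gave 5 of the neighbouring lists on CFA6D, 3 transcripts from CFA3D to CFA6D and 2 over both days. Without the filter, neighbouring lists had 4 calls on CFA3D and 3 over both days, transcripts had 3 from CFA3D to CFA6D and 2 over both days, and Mvd was the 1 other enzyme from CFA3D to CFA6D. A pseudocount of 1 gave 4 of the neighbouring lists on CFA3D. Without the trend, 1 of them was called from CFA3D to CFA6D, and 1 transcript on CFA6D. A filter at 1 FPKM left 1 transcript on CFA3D and 1 on CFA6D. Protein-coding sums left 1 other enzyme on each CFA day and over both, and gave 5 of the neighbouring lists on CFA3D and 4 over both days. Taking the transcript of highest mean gave 1 other enzyme (Tm7sf2) from CFA3D to CFA6D and 4 of the neighbouring lists over both days.

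Without the pituitary-rich libraries, chosen after seeing the data, 0 of the 7 were called on CFA6D or over both days, 1 other enzyme in each comparison (Tm7sf2 from CFA3D to CFA6D), 2 of the neighbouring lists over both days, and 1, 1, 2 and 0 transcripts. Without the muscle-rich libraries, likewise, 1 of the 7 was called on CFA3D (Idi1, 0.51), 0 on CFA6D, 1 other enzyme on CFA6D, 1 of the neighbouring lists on CFA3D and 0 from CFA3D to CFA6D, and 4, 1, 2 and 2 transcripts. Leaving out 1 library at a time, in the order above, gave 0 to 2, 1 to 2, 0 to 1 and 0 to 2 of the 7, 1 to 7, 1 to 3, 0 to 1 and 1 to 5 other enzymes, 1 to 9, 2 to 4, 0 to 4 and 1 to 7 of the neighbouring lists, and 1 to 3, 1 to 3, 1 to 3 and 1 to 2 transcripts.

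Small uncalled changes turned sign. On CFA3D, Fdft1 was -0.060 by quantile normalization, -0.020 by median-of-ratios scaling, -0.029 without the muscle-rich libraries, -0.092 by its highest transcript and -0.11 to 0.17 over single libraries left out, and Lss was 0.0021 without the pituitary-rich libraries, 0.044 by its highest transcript and -0.063 to 0.0095 over single libraries, and Insig1 was -0.082 to 0.058 over single libraries. On CFA6D, without the pituitary-rich libraries, Idi1 was -0.053, Sqle -0.085, Insig1 -0.073 and the median of the 7 -0.073. Hmgcs1 was 0.00038 without the muscle-rich libraries, Sqle -0.016 and Insig1 -0.065 by quantile normalization, Insig1 -0.020 by median-of-ratios scaling, and Lss -0.069 by its highest transcript. Over single libraries left out on CFA6D, Hmgcs1 was -0.062 to 0.047, Idi1 -0.023 to 0.38, Sqle -0.036 to 0.18, Insig1 -0.045 to 0.094 and the median of the 7 -0.036 to 0.12. The cause of these shifts was not tested.

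Saline and CFA3D share replicate numbers. Deviations of same-numbered libraries had correlations of 0.09, -0.08 and 0.03, against -0.11 to 0.06 for libraries of different number. Deviations were taken within groups of 3, which ties these values to each other, so the check cannot exclude pairing. The main fit did not pair the libraries. With the replicate block on CFA3D, 0 of the 7 genes, 1 other enzyme and 1 of the neighbouring lists were called, and Ggps1 and Nus1 were not. CFA6D shares no number with saline. Depth gave about 780 or more read pairs per library for each of the 7 gene sums. Mir33, the lncRNAs and the called transcripts of small share, at lower levels, are limited more by depth.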
